A study of Mus musculus with 8 samples.

Results

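Expression of 6 orphan nuclear receptor genes, Nr2f1, Nr2f2, Nr2f6, Nr2e1, Rora and Rorb, was followed in the mouse optic fissure over embryonic days 10.5, 11.5 and 12.5 (E10.5, E11.5 and E12.5). The members were all probe sets annotated to these symbols alone, 23 of the 45101 on the array, of which 18 passed a filter that left out the lowest 40% of probe sets by mean signal. Nr2f1 had 1 probe set, Nr2f2 had 6, Nr2f6 and Nr2e1 had 2 each, Rora had 9 and Rorb had 3, and the 5 that did not pass were all of Rora. The genes were chosen by receptor family and with the stage differences of these same arrays already known, so their changes between stages are a description of these arrays and not independent evidence.

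The tissue was the optic fissure, the ventral groove of the optic cup, taken by laser microdissection of frozen sections, and the wild-type embryos are given by the labels as C57BL/6 in one field and C57BL6/J in another. E10.5 and E11.5 had 3 arrays each (A, B and C) and E12.5 had 2 (A and B). No treatment or allele differed between the groups, which are stages of one wild-type strain, and the RNA on an array came from a pool of 3 embryos. One label gives the embryos of a pool as littermates and another as coming from separate litters, so p-values measure the spread between pools, of which part may be technical.

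Nuclear receptors are transcription factors with a zinc finger domain that binds DNA and a second domain that, in many of them, binds a small lipophilic ligand. These 6 are called orphan because a natural ligand was unknown when they were found, and ligands of several remain disputed. Nr2f1 and Nr2f2 (COUP-TFI and COUP-TFII) bind repeats of the half-site AGGTCA and mostly repress. In the mouse eye both are needed to set apart optic stalk, pigment epithelium and neural retina. Nr2f6 (EAR2) is their more divergent relative. Nr2e1, the mouse tailless homologue, represses transcription in progenitors of the forebrain and retina and binds the half-site AAGTCA. Rora and Rorb bind as monomers to an AGGTCA half-site with an A/T-rich flank and activate transcription. Rorb acts in retinal progenitors and later in rod and amacrine cells, and Rora acts in cones and in cerebellar Purkinje cells.

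The promoters of Nr2f2, which fell, and Rorb, which rose, are shown, since these are the members whose changes were called on every probe set. Each is the 250 bases before the annotated start from RefSeq (GRCm38.p6), written in the direction of transcription with CpG dinucleotides in capitals. That of Nr2f2 lies at chr7:70366747-70366996 on the minus strand and that of Rorb at chr19:19111197-19111446 on the minus strand.
Nr2f2: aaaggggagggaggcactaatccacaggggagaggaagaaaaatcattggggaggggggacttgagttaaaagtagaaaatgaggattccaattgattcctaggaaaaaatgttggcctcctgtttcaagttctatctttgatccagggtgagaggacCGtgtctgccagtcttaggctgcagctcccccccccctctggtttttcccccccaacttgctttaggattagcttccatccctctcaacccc
Rorb: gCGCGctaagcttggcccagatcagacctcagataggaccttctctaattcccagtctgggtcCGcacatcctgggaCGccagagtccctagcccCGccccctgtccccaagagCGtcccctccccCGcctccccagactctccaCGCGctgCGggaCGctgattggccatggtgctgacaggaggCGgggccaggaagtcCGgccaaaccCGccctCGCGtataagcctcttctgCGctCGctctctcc
The Rorb window held 18 CpG dinucleotides and the Nr2f2 window held 1, against a median of 6 over 32851 RefSeq promoter windows of that length. All 6 genes matched the RefSeq table, with 8 promoter windows, and the Rorb window shown is the first of 2. The half-sites AGGTCA and AAGTCA, searched on both strands, were in 0 of these 8 windows, and they were in 14% and 13.1% of all windows.

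Across the 8 arrays the median log2 signal lay between 4.37 and 4.48, while the 99th percentile, a measure of the upper end of the signal range, ran from 12.55 to 12.93 at E10.5, from 11.19 to 12.38 at E11.5 and from 12.47 to 12.58 at E12.5. For the Actb control, the log2 signal of the 3 prime probe set less that of the 5 prime one, which is lower where transcripts are read nearer to full length, was 6.83 to 6.96 at E10.5, 5.45 to 6.61 at E11.5 and 6.88 to 7.21 at E12.5. The part of RNA quality and of this scale in the results was not tested. The median change over all 27022 tested probe sets was -0.18 between E11.5 and E10.5, 0.10 between E12.5 and E11.5 and -0.08 between E12.5 and E10.5. Quantile normalization moved these medians to -0.02, -0.04 and -0.06. Of 10 listed optic cup markers 8 were kept, and their summed linear signal was 11655 to 13526 at E10.5, 5071 to 10222 at E11.5 and 17005 to 18425 at E12.5. Fewer cells of a type and less RNA per cell cannot be told apart in such bulk samples. Precision is limited by the small number of arrays.

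Nr2f2 fell and Rorb rose over the 2 days, Rora rose on 1 probe set, and Nr2f1, Nr2f6 and Nr2e1 passed the test in no comparison. From E10.5 to E12.5, 6 of the 18 tested member probe sets were called lower, all of Nr2f2, against 1.56% of all tested probe sets, and 4 were called higher, 3 of Rorb and 1 of Rora, against 3.08% of all. Between E12.5 and E11.5, 2 were called lower, against 0.2% of all, and 3 were called higher, against 1.62% of all. Between E11.5 and E10.5, 1 was called lower, against 0.0296% of all, and 0 were called higher, against 0.0962% of all. In that last comparison 4 members were higher and 8 lower at an unadjusted p below 0.05, as were 5254 of the 27022 probe sets in either direction. A call is an adjusted p below 0.05 in limma, with Benjamini-Hochberg adjustment over all 27022 probe sets.

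**Figure D1:**
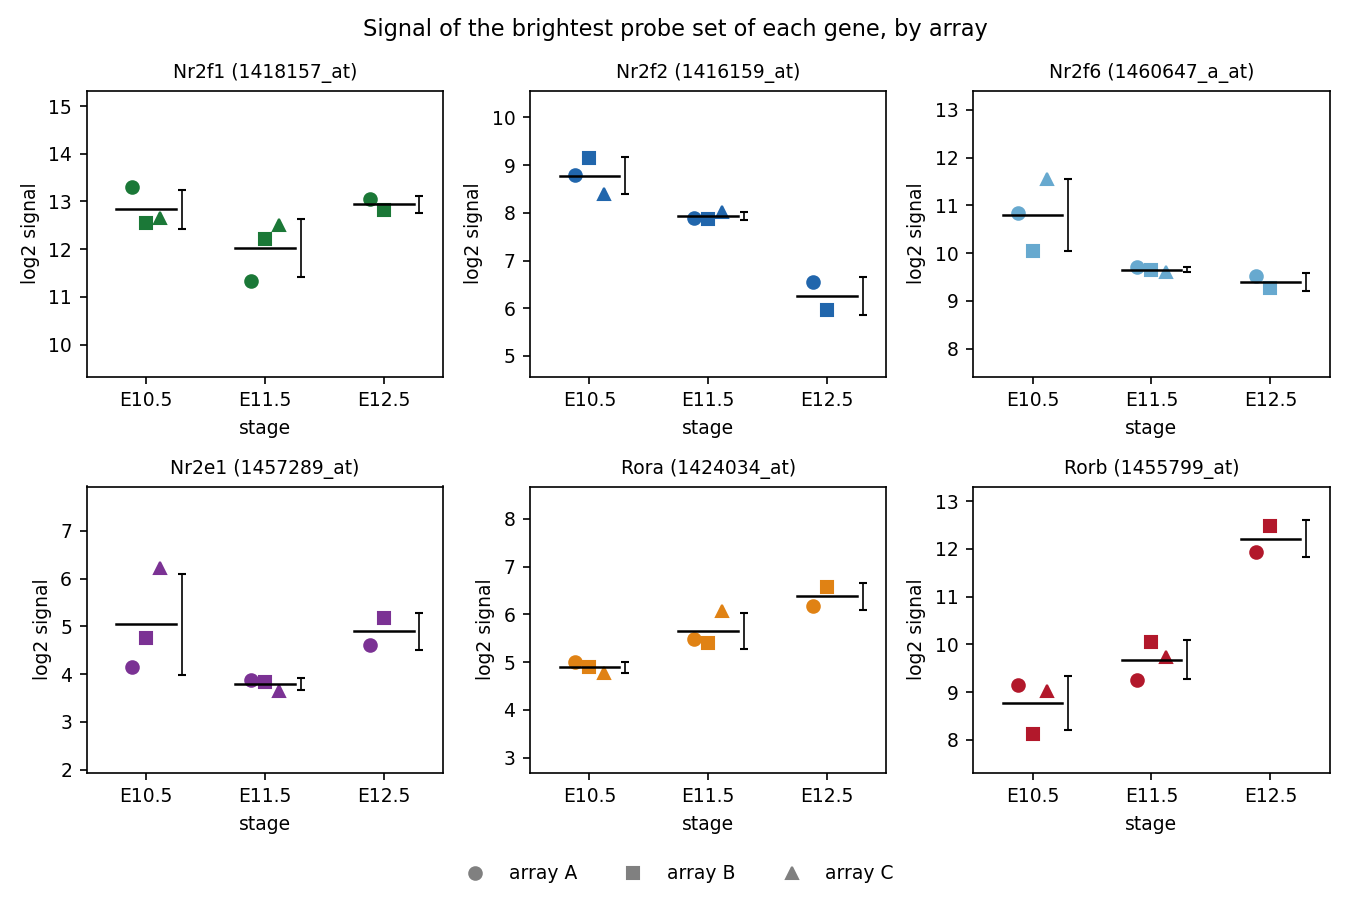
Log2 signal (vertical axis, 6 log2 units high in every panel) of the brightest probe set of each gene on each array, by stage (horizontal axis). Points are arrays, horizontal lines are stage means and error bars are 1 SD; Nr2f2 steps down at each stage, Rorb and Rora step up, and the Nr2f1 arrays of E10.5 and E12.5 overlap.

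Nr2f2 was lower at each later stage on all 6 of its probe sets. Its brightest probe set, 1416159_at, had log2 signals of 8.79, 9.16 and 8.40 on the E10.5 arrays, 7.88, 7.88 and 8.02 on the E11.5 arrays and 6.54 and 5.97 on the E12.5 arrays. The stages did not overlap, and every later stage lay below every earlier one. The signal fell by 2.53 on the log2 scale between E12.5 and E10.5 (SE 0.30, 5.76-fold, adjusted p = 0.000748). It fell by 1.67 between E12.5 and E11.5 (SE 0.30, adjusted p = 0.0155), a call lost without E11.5 A, E11.5 B or E12.5 B (adjusted p = 0.061, 0.0743 and 0.41). The E11.5 minus E10.5 difference of -0.85 (SE 0.27, adjusted p = 0.161) was not called, and it was -0.67 relative to the median of all probe sets.

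The other probe sets of Nr2f2 ran the same way with different sizes. Probe set 1444229_at had 7.60, 8.02 and 9.79 at E10.5, 7.06, 6.05 and 6.05 at E11.5 and 4.68 and 4.22 at E12.5, and it fell by 4.02 between E12.5 and E10.5 (SE 0.54, 16.2-fold, adjusted p = 0.00197). Array C stood above the other E10.5 arrays on this probe set, but not on 1416159_at, where it was the lowest of them. Without E10.5 C the fall on 1444229_at was -3.36 (adjusted p = 0.000832). Probe set 1416160_at had 6.41, 6.44 and 6.44 at E10.5, 5.23, 5.60 and 4.62 at E11.5 and 3.91 and 3.67 at E12.5, and between E12.5 and E10.5 it fell by 2.64 (SE 0.27, adjusted p = 0.000267). It also fell by 1.36 between E12.5 and E11.5 (adjusted p = 0.0287), a call lost without E10.5 B, E11.5 A, E11.5 B, E12.5 A or E12.5 B (adjusted p of 0.054 to 0.438). Its E12.5 values were below 3.94, the mean signal that the filter required.

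The single call between E11.5 and E10.5 was on Nr2f2 probe set 1416158_at. It had 5.44, 6.02 and 5.93 at E10.5, 4.34, 4.35 and 4.72 at E11.5 and 3.55 and 3.61 at E12.5. The stages did not overlap. It fell by 1.33 between E11.5 and E10.5 (SE 0.20, adjusted p = 0.0359) and by 2.22 between E12.5 and E10.5 (SE 0.22, adjusted p = 0.000252), and its E12.5 values too lay below 3.94. The E12.5 minus E11.5 difference of -0.89 (SE 0.22, adjusted p = 0.0786) was not called. Among the 8 fits that left out 1 array, the early call held in the 1 without E10.5 A and was lost in the other 7, at -1.45 to -1.21 (adjusted p of 0.0613 to 0.2).

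The remaining Nr2f2 probe sets had the smallest differences between E12.5 and E10.5. Probe set 1436475_at averaged 6.49 ± 0.25, 5.55 ± 0.34 and 4.63 ± 0.09 in order of stage (SD over 3, 3 and 2 arrays). Probe set 1431237_at averaged 5.67 ± 0.10, 5.12 ± 0.30 and 4.54 ± 0.45 in the same order. They fell by 1.87 and 1.13 between E12.5 and E10.5 (limma adjusted p = 0.00224 and 0.0285). Over the 6 probe sets the differences between E12.5 and E10.5 thus ran from -4.02 (-3.36 without E10.5 C) to -1.13, with a median of -2.37. Calls on 5 of them held in every fit that left out 1 array, and that on 1431237_at was lost without E10.5 A, E11.5 B or E12.5 B (adjusted p = 0.0547, 0.0535 and 0.452).

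**Figure D2:**
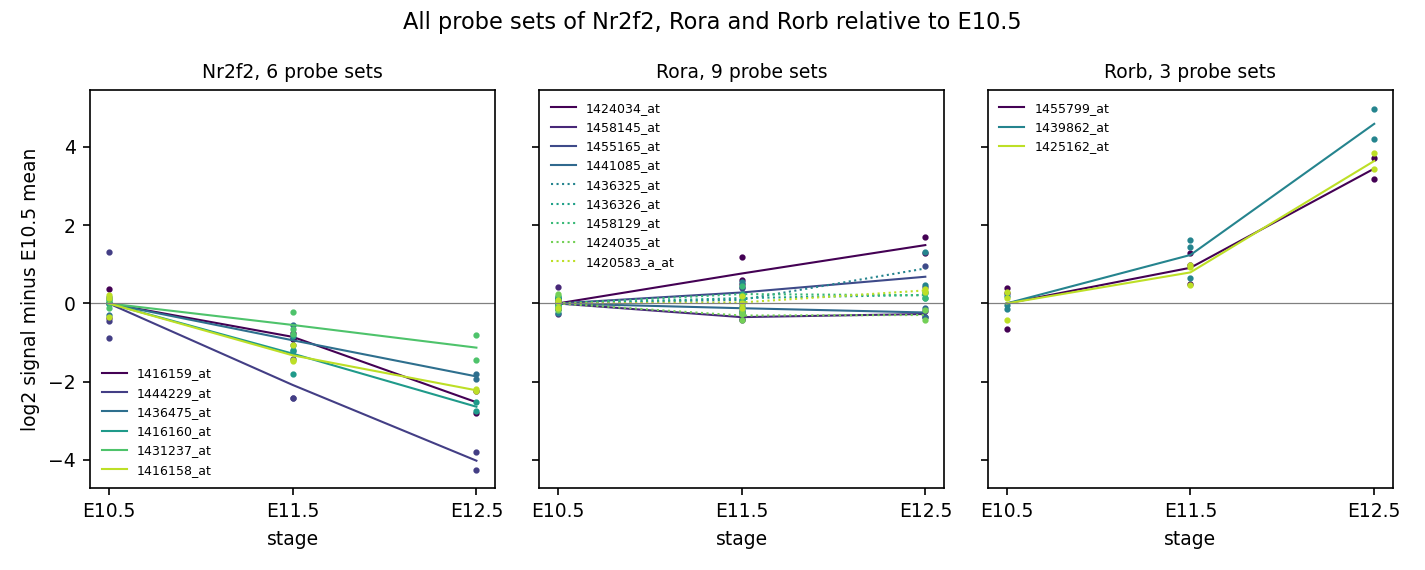
Log2 signal minus the E10.5 mean (vertical axis) for every probe set of Nr2f2, Rora and Rorb by stage (horizontal axis). Lines join stage means, points are arrays and dotted lines are probe sets under the filter; all 6 lines of Nr2f2 run down to between -4.02 and -1.13, all 3 of Rorb run up to between 3.45 and 4.59, and those of Rora end between -0.30 and 1.49 at E12.5.

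Nr2f1 was bright on every array and did not differ between the first and last stage beyond its spread. Its single probe set, 1418157_at, had 13.31, 12.54 and 12.65 at E10.5, 11.34, 12.21 and 12.51 at E11.5 and 13.06 and 12.82 at E12.5. The E11.5 arrays lay below all others by a narrow margin, with E11.5 A the lowest. The difference was 0.11 between E12.5 and E10.5 (95% interval -0.85 to 1.06, adjusted p = 0.911), 0.92 between E12.5 and E11.5 (adjusted p = 0.316) and -0.81 between E11.5 and E10.5 (adjusted p = 0.275). After quantile normalization the last of these turned to 0.16 and that between E12.5 and E11.5 shrank to 0.22. The interval on Nr2f2 probe set 1416159_at was -3.18 to -1.87, and the difference between these paralogues was not tested.

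Nr2f6 was lower at the later stages without passing the test. Probe set 1460647_a_at had 10.83, 10.04 and 11.55 at E10.5, 9.71, 9.64 and 9.60 at E11.5 and 9.52 and 9.26 at E12.5. The E10.5 arrays were widely spread and all lay above the later ones, which sat close together. The difference between E12.5 and E10.5 was -1.41 (SE 0.40, adjusted p = 0.0675), and it passed when E10.5 B was left out (-1.80, adjusted p = 0.0242). The E11.5 minus E10.5 difference was -1.15 (adjusted p = 0.161), which shrank to -0.42 after quantile normalization. The dimmer probe set 1460648_at had a difference between E12.5 and E10.5 of -0.55 (SE 0.25, adjusted p = 0.213).

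In all, 8 of the 18 tested member probe sets had both E12.5 arrays below every E10.5 array, all of Nr2f2 or Nr2f6, against 25.7% of all tested probe sets, and 6 had both above, against 19.3%. Between E12.5 and E11.5, 7 lay wholly below, against 14.1% of all, and 7 wholly above, against 29.6% of all. Between E11.5 and E10.5, 9 lay wholly below, against 19.3% of all, and 4 wholly above, against 3.57% of all. Groups this small often do not overlap, so these shares are given only as a description.

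The levels of markers of neighbouring cells are given beside those of Nr2f2, which is also known from mesenchyme and from venous endothelium. The linear signal of the 9 kept of 12 markers of periocular mesenchyme, the tissue around the optic cup, was summed on each array. This sum was 218 to 281 at E10.5, 709 to 1418 at E11.5 and 752 to 1217 at E12.5. It was thus higher at both later stages than at E10.5. Its E11.5 and E12.5 ranges overlapped. Between E12.5 and E11.5 none of the 9 was called, and their median log2 change was -0.15. Postn, Foxc2, Foxc1, Lum and Col3a1 changed by -1.62, -1.34, -0.89, -0.58 and -0.15. Ogn, Dcn, Tfap2b and Prrx1 changed by 1.67, 0.67, 0.46 and 0.22. Nr2f2 was lower at E12.5 than at E11.5. Ogn, Lum and Tfap2b averaged 3.10, 3.26 and 3.69 at E10.5, below the filter's level of 3.94. These markers passed the filter through the later arrays, so their part of the rise of the sum after E10.5 was partly set by it. The 5 kept of 10 endothelial markers summed to 194 to 249, 194 to 218 and 285 to 290 at E10.5, E11.5 and E12.5. The higher E12.5 sum came from Kdr, which averaged 6.57, 6.08 and 7.33 in that order. The median log2 change of the 5 was 0.03 between E12.5 and E10.5 and 0.006 between E12.5 and E11.5. Cdh5, Pecam1 and Tie1, defining endothelial genes, did not pass the filter, nor did the mesenchymal factor Twist1. The part of these cells in the Nr2f2 signal was not tested.

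Nr2e1 was dim at every stage. Its probe set 1457289_at had 4.16, 4.76 and 6.22 at E10.5, 3.88, 3.84 and 3.65 at E11.5 and 4.62 and 5.17 at E12.5. Probe set 1434921_at had 3.50, 4.79 and 3.82 at E10.5, 3.88, 3.74 and 3.09 at E11.5 and 4.80 and 4.84 at E12.5. On both, the E12.5 arrays lay above every E11.5 array. The E10.5 arrays were widely spread, with C highest on the one and B highest on the other. Both probe sets averaged below the filter's level of 3.94 at E11.5 (3.79 on 1457289_at and 3.57 on 1434921_at). Probe set 1434921_at averaged 4.04 at E10.5 and 4.82 at E12.5, and it passed the filter only through its E12.5 arrays. Its higher values at E12.5 than at E11.5 were therefore partly set by the filter. The difference between E12.5 and E11.5 was 1.10 (SE 0.45, adjusted p = 0.246) on 1457289_at and 1.25 (SE 0.33, adjusted p = 0.093) on 1434921_at. It passed on 1457289_at without E10.5 C (adjusted p = 0.0281) and on 1434921_at without E10.5 B (adjusted p = 0.0379), arrays of neither stage, which enter through the shared spread. It also passed on both with only the E12.5 and E11.5 arrays (adjusted p = 0.0296 and 0.0367). It passed on both with array weights too (adjusted p = 0.000982 and 0.000476). That weighted fit called 10431 of all 27022 probe sets between these stages, against 492 in the main fit. From E10.5 to E12.5 the probe sets had opposite signs, -0.15 and 0.78, and neither was called.

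Rorb rose steeply on all 3 of its probe sets. Probe set 1455799_at, the brightest, had 9.16, 8.13 and 9.03 at E10.5, 9.26, 10.05 and 9.74 at E11.5 and 11.95 and 12.49 at E12.5. Both E12.5 arrays lay well above every other array, and the E11.5 arrays were just above those of E10.5. It rose by 2.53 between E12.5 and E11.5 (SE 0.39, 5.79-fold, adjusted p = 0.00679) and by 3.45 between E12.5 and E10.5 (SE 0.39, 10.9-fold, adjusted p = 0.000629). Without E12.5 B the first of these was 2.26 and no longer called (adjusted p = 0.153).

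The dimmer Rorb probe sets showed larger differences at E12.5 against either earlier stage. Probe set 1439862_at had 4.96, 5.07 and 5.29 at E10.5, 5.76, 6.56 and 6.73 at E11.5 and 9.31 and 10.09 at E12.5, and it rose by 3.35 between E12.5 and E11.5 (SE 0.33, 10.2-fold, adjusted p = 0.000393). Probe set 1425162_at had 5.40, 5.26 and 4.70 at E10.5, 5.59, 6.10 and 6.04 at E11.5 and 8.55 and 8.98 at E12.5, and it rose by 2.85 (SE 0.29, 7.20-fold, adjusted p = 0.000416). The stages did not overlap on either. Both calls held whichever array was left out, as did those of all 3 probe sets between E12.5 and E10.5, where these 2 rose by 4.59 (24.1-fold) and 3.64 (12.5-fold).

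Over the first day Rorb was not called. The differences were 0.91 (adjusted p = 0.203), 1.24 (adjusted p = 0.143) and 0.79 (adjusted p = 0.165) on 1455799_at, 1439862_at and 1425162_at in limma. They were 1.48, 1.33 and 0.88 after quantile normalization, none of them called. The 95% interval on 1439862_at ran from 0.59 to 1.89 on the first day and from 2.62 to 4.08 on the second, and the difference between the steps was not tested.

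**Figure D3:**
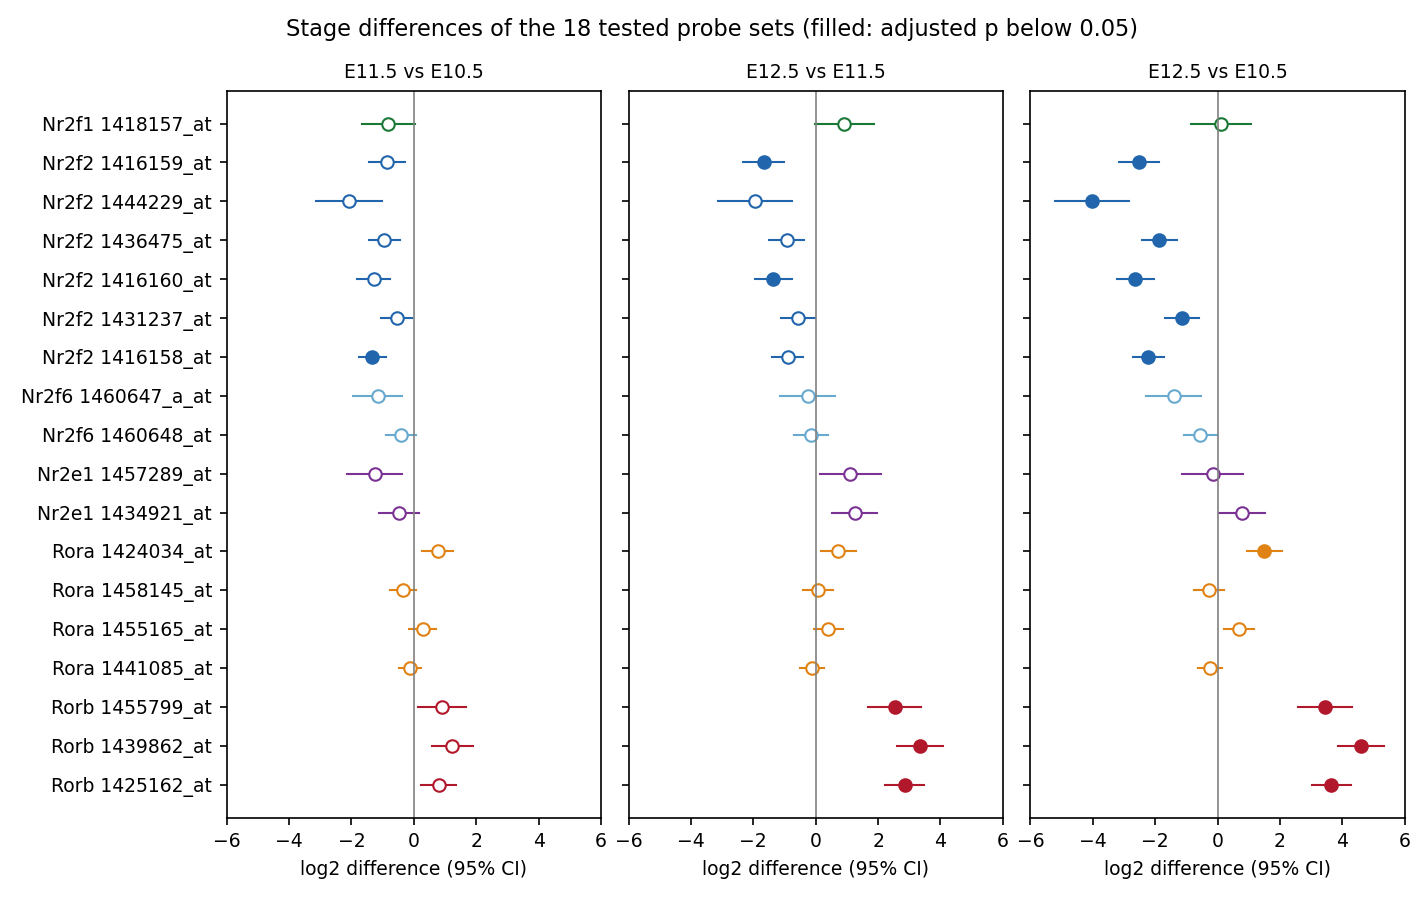
Log2 difference between stages (horizontal axis) with its 95% interval from limma for the 18 tested probe sets (vertical axis), one panel for each comparison, later stage minus earlier. Filled points have an adjusted p below 0.05; all 6 Nr2f2 and all 3 Rorb probe sets are filled between E12.5 and E10.5, with Nr2f2 to the left of 0 and Rorb to the right.

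Rora rose on its brightest probe set and gave a mixed picture on the others. Probe set 1424034_at had 4.99, 4.89 and 4.78 at E10.5, 5.48, 5.39 and 6.08 at E11.5 and 6.18 and 6.58 at E12.5. The stages did not overlap, although E11.5 C came close to E12.5 A. It rose by 1.49 between E12.5 and E10.5 (SE 0.26, 2.81-fold, adjusted p = 0.00836), a call lost without E12.5 B (1.29, adjusted p = 0.157). The steps of 0.76 between E11.5 and E10.5 (adjusted p = 0.16) and 0.73 between E12.5 and E11.5 (adjusted p = 0.191) were not called.

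The other kept Rora probe sets were not called in any comparison. For E12.5 minus E10.5 the difference was 0.68 on 1455165_at (adjusted p = 0.0939), -0.27 on 1458145_at (adjusted p = 0.499) and -0.23 on 1441085_at (adjusted p = 0.468). Of the 9 probe sets, 6 were higher and 3 lower at E12.5 than at E10.5. One under the filter, 1436325_at, had 3.72, 3.34 and 3.67 at E10.5, 3.36, 3.51 and 4.14 at E11.5 and 4.05 and 4.89 at E12.5. The mean of the 4 kept probe sets gave a Rora difference of 0.42 (adjusted p = 0.22), so the call of Rora rests on 1 probe set. Rora has several transcripts that start at different places, and which of them each probe set reads was not determined.

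Markers of newborn neurons were high on the same arrays as Rorb. The summed linear signal of the 9 kept of 10 such markers was 135 to 153 at E10.5, 114 to 126 at E11.5 and 4343 at E12.5 A and 10735 at E12.5 B. Most of these markers, among them Atoh7, Neurod1, Neurog2, Dcx, Stmn2 and Tubb3, averaged below the filter's level of 3.94 at both earlier stages and passed it through the E12.5 arrays, so no count of them is given. Rorb was higher on E12.5 B than on E12.5 A on all 3 probe sets, and so was Rora on 1424034_at. The part of neurons in the Rorb and Rora signals was not tested.

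Most of the other nuclear receptors were not called. Of 43 listed, 27 had a kept probe set. From E10.5 to E12.5, 2 rose, 2 fell and 23 were not called. Of all tested probe sets, 3.08% were called higher and 1.56% lower. The median change of the 27 was -0.22, against -0.10 over 13050 genes. Nr3c1, the glucocorticoid receptor, had 4.97, 5.04 and 4.88 at E10.5, 5.42, 5.49 and 5.15 at E11.5 and 6.82 and 6.58 at E12.5. It rose by 1.74 between E12.5 and E10.5 (SE 0.21, adjusted p = 0.000983) and was the single one of the 27 called between E12.5 and E11.5, at 1.35 (adjusted p = 0.00791, lost without E12.5 A and without E12.5 B, at adjusted p up to 0.0723). Esrrg, an orphan receptor of the estrogen-related group, rose by 1.36 (adjusted p = 0.034). Nr6a1, the germ cell nuclear factor, fell by 0.85 (adjusted p = 0.0304) and Nr0b1 (DAX1), which lacks the usual DNA-binding domain, fell by 0.92 (adjusted p = 0.0369), both to below 3.94 at E12.5. The Esrrg, Nr6a1 and Nr0b1 calls held in 3, 4 and 3 of the 8 fits that left out 1 array, each being lost without E11.5 B and without E12.5 B among others (adjusted p up to 0.452, 0.238 and 0.415). The Nr0b1 call also ended after quantile normalization (adjusted p = 0.0545).

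Rorb and Nr2f2 stood at the 2 ends of the receptors' range between E12.5 and E10.5. The other 27 ran from -1.78 for Rxrb, a retinoid X receptor, to 2.18 for Nr1d2, the repressor REV-ERB beta, neither of which was called. The Nr1d2 values were 7.60, 7.59 and 5.15 at E10.5, 7.10, 7.94 and 8.79 at E11.5 and 9.03 and 8.90 at E12.5, with E10.5 C far below the rest.

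**Figure D4:**
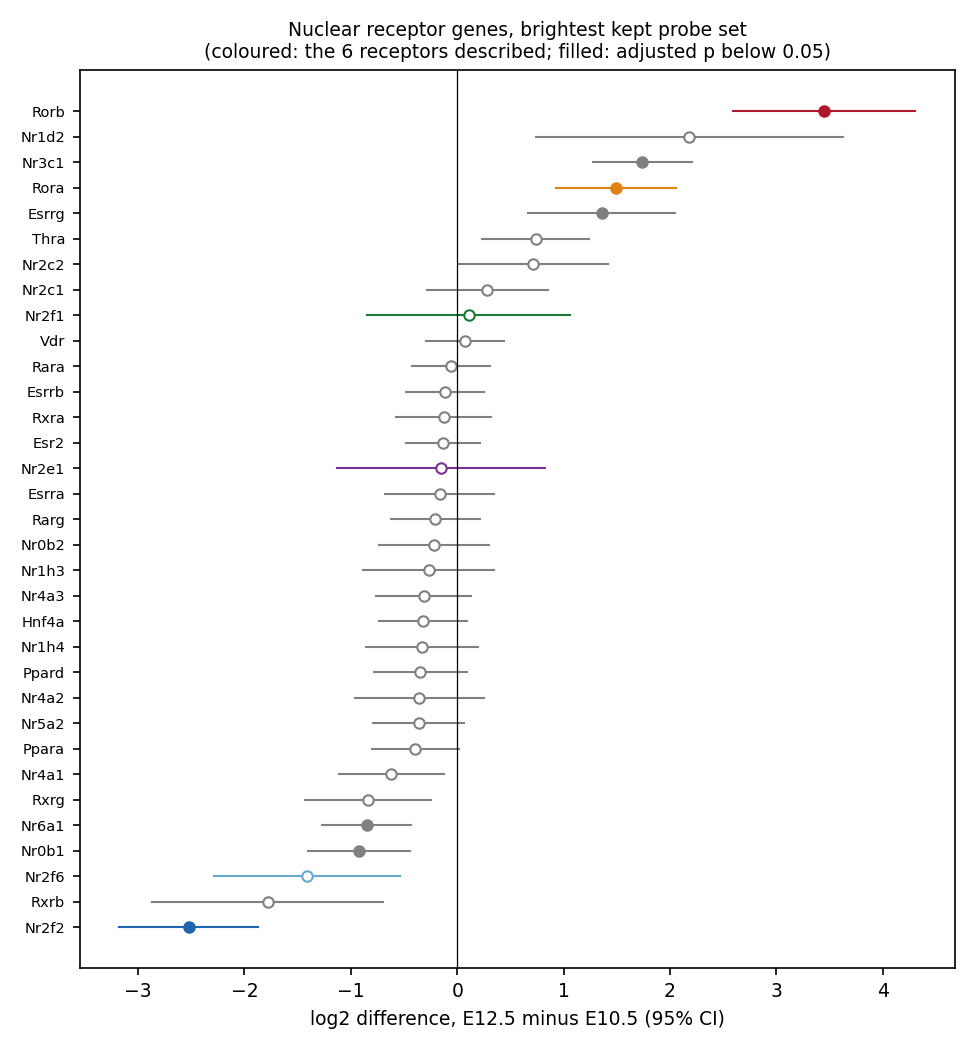
Log2 difference between E12.5 and E10.5 (horizontal axis) with its 95% interval from limma for the brightest kept probe set of nuclear receptor genes (vertical axis), in order of size. The 6 receptors described are coloured and filled points have an adjusted p below 0.05; Rorb is at the top at 3.45 and Nr2f2 at the bottom at -2.53.

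RORs activate and REV-ERBs repress through shared elements in genes of the circadian clock. Of 16 such genes 15 had a kept probe set, and Arntl (BMAL1), the core activator of the clock, was the 1 called. It had 6.31, 6.64 and 5.78 at E10.5, 6.51, 6.72 and 7.0 at E11.5 and 9.18 and 9.88 at E12.5, with both E12.5 arrays far above the rest. Arntl rose by 2.79 between E12.5 and E11.5 (SE 0.32, adjusted p = 0.00104) and by 3.29 between E12.5 and E10.5 (SE 0.32, adjusted p = 0.00023), whichever array was left out. The other 14 genes were not called. Among all tested probe sets 1.62% and 3.08% were called higher in these comparisons. The list's median was -0.11 between E12.5 and E11.5 and -0.03 between E12.5 and E10.5, against 0.11 and -0.10 over 13050 genes. The hour at which embryos were collected was not among the labels used here.

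Of 16 retinal genes tied to Rorb or Rora 10 had a kept probe set. Between E12.5 and E11.5, 4 rose, none fell and 6 were not called, against 1.62% called higher and 0.2% lower over all tested probe sets. Their median was 0.37 against 0.11 over 13050 genes. Foxn4, a factor of amacrine and horizontal cell precursors, had 6.13, 6.21 and 6.67 at E10.5, 6.58, 6.55 and 6.58 at E11.5 and 8.36 and 8.43 at E12.5. It rose by 1.83 between E12.5 and E11.5 (SE 0.25, adjusted p = 0.00301, lost without E12.5 B at adjusted p = 0.0658). Onecut1 and Onecut2, factors of horizontal and ganglion cell precursors, rose by 2.79 (adjusted p = 0.000689) and 2.61 (adjusted p = 0.00421) in limma, with 2.19 to 3.39 and 1.92 to 3.30 when 1 array was left out. The fourth was the proneural gene Neurod1, which had 8.75 and 9.65 at E12.5, against 3.28, 3.34 and 3.32 at E11.5. Neurod1 lay below the filter's level of 3.94 on every earlier array and Onecut1 averaged 3.82 at E11.5, so both passed the filter through E12.5 and had to differ. The count of 4 was therefore partly set by the filter. Over both days 5 rose, 1 fell and 4 were not called, and 3.08% of all tested probe sets were called higher and 1.56% lower. Tfap2b, an AP-2 factor of amacrine precursors, rose by 1.41 (limma adjusted p = 0.0388, held in 4 of 8 fits that left out 1 array), and Otx2 fell by 1.34 (limma adjusted p = 0.0469). Neurod1 is also one of the newborn neuron markers given above. Tfap2b is also one of the periocular mesenchyme markers, and it averaged 3.69 at E10.5, below the filter's level.

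Of 16 eye genes tied to Nr2f factors 14 had a kept probe set, and both calls were between E12.5 and E10.5 in limma. Nrp1, a receptor for semaphorins and VEGF, rose by 2.22 (adjusted p = 0.034), Otx2, a homeodomain factor of the pigment epithelium, fell by 1.34 and 12 were not called. The median was 0.21. The Nrp1 call was lost without E10.5 C, E11.5 A, E11.5 B or E12.5 B, each left out alone, and the Otx2 call in 5 of the 8 such fits (adjusted p up to 0.447 and 0.452). Otx2 is in both this list and the one before. The named genes with the smallest unadjusted p also included Foxc1, Vax1 and Angpt1. Their differences between E11.5 and E10.5 were 1.41 (adjusted p = 0.0958), -1.11 (adjusted p = 0.109) and 0.67 (adjusted p = 0.137) in limma.

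Of 14 genes tied to Nr2e1 in neural progenitors 12 had a kept probe set. Between E12.5 and E11.5, 3 rose, none fell and 9 were not called, against 1.62% called higher and 0.2% lower over all tested probe sets. Their median was 0.59 against 0.11 over 13050 genes. Sox2, a factor of neural progenitors, rose by 2.0 (adjusted p = 0.0129), the cyclin Ccnd1 by 1.89 (adjusted p = 0.0161) and the receptor Notch1 by 1.76 (adjusted p = 0.0122) in limma. Of these, Sox2 is also one of the optic cup markers above. It was 1.21 lower at E11.5 than at E10.5 and 0.79 higher at E12.5 than at E10.5. Neither difference was called (limma adjusted p = 0.143 and 0.206). After quantile normalization the 3 rises between E12.5 and E11.5 were 1.39, 1.33 and 1.48, still called. Each call was lost without E11.5 B and without E12.5 B, and also without E12.5 A for Sox2 and Ccnd1 and without E11.5 A for Notch1 (adjusted p up to 0.226, 0.278 and 0.279). Over both days Notch1 rose by 1.30 (adjusted p = 0.0328) and Bmp4, a ligand of the dorsal optic cup, fell by 0.91 (adjusted p = 0.0375), each held in 3 of the 8 fits that left out 1 array.

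Of 23 coregulators that act with these receptors 20 had a kept probe set. Ncoa1, a coactivator with histone acetyltransferase activity, was the 1 called. It had 6.22, 6.27 and 5.30 at E10.5, 6.22, 6.63 and 7.15 at E11.5 and 7.66 and 8.30 at E12.5, and it rose by 2.05 between E12.5 and E10.5 (SE 0.37, adjusted p = 0.0107, lost without E12.5 B at adjusted p = 0.177). The list's median was 0.24 between E12.5 and E10.5, against -0.10 over 13050 genes, and 3.08% of all tested probe sets were called higher. The other 19 were not called in any comparison. They included Bcl11a, a zinc finger partner of Nr2f factors, at 1.18 (adjusted p = 0.0703), the coactivator Ncoa2 at 1.17 (adjusted p = 0.085) and the corepressor Rcor1 at 1.17 (adjusted p = 0.108).

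Other genes had profiles close to those of the receptors called on their brightest probe set. Likeness was the root mean square difference of log2 values over the 8 arrays, after the mean of each probe set was taken off, and the 5 nearest genes were named for each. Every gene so named is given by its kept probe set nearest in profile, which need not be its brightest. Nearest to Nr2f2, whose own values had an SD of 1.08, were Meg3, a noncoding RNA of an imprinted locus (0.27), Grrp1 (0.31), the activin antagonist Fst (0.31), the phosphatase Dusp9 (0.32) and Dlc1 (0.34). Their differences between E12.5 and E10.5 ran from -2.87 for Fst to -1.86 for Dlc1. Nearest to Rorb (SD 1.5) were the chloride channel Cftr (0.33), the cadherin Cdh4 (0.37), Ank3, an ankyrin of axon initial segments (0.39), the nuclear factor Tox (0.40) and the adhesion molecule Ncam1 (0.44). Nearest to Rora (SD 0.67) were Gpr155 (0.13), Cpeb4, which binds the tails of mRNAs (0.18), Pcmtd1 (0.18), the kinase Jak2 (0.18) and Lhfp (0.19). The Ncam1 probe set had 3.33, 3.48 and 3.65 at E10.5, 3.64, 4.07 and 3.93 at E11.5 and 5.81 and 6.61 at E12.5. Of its arrays before E12.5, only E11.5 B reached 3.94, the mean signal that the filter required. Ncam1 thus passed the filter through its E12.5 arrays, and its likeness to Rorb was partly set by the filter. The likeness values are a description of these arrays.

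**Figure D5:**
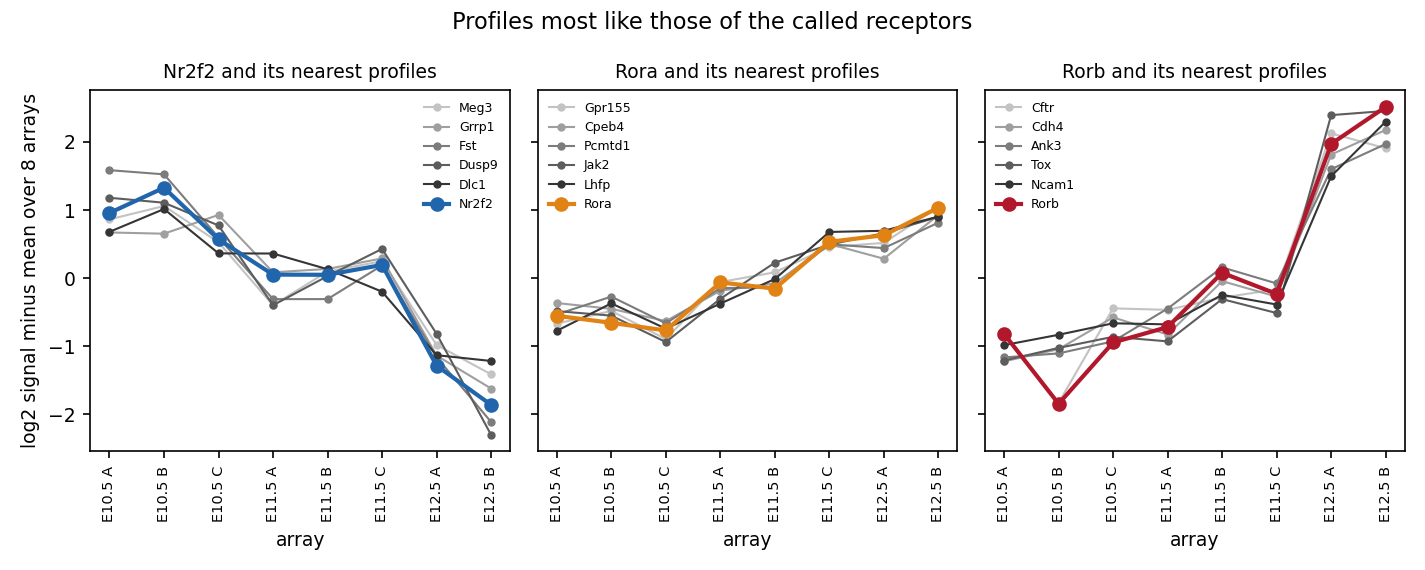
Log2 signal minus its mean over the 8 arrays (vertical axis) on each array (horizontal axis) for Nr2f2, Rora and Rorb (coloured) and the 5 genes nearest to each (grey). The grey lines follow the coloured one within a root mean square difference of 0.34 for Nr2f2, 0.19 for Rora and 0.44 for Rorb.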

How the data were processed

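The deposited table holds log2 values, 1 for each probe set and array. The submitters' processing notes name GCOS 1.4 without saying what it did. The authors' probe summary, background step and normalization are not given in the sources used here. Per the labels' protocols, RNA was amplified linearly by in vitro transcription before biotin labelling, which favours the 3 prime ends of transcripts.

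The deposited log2 values were used without further normalization. The 64 control probe sets and the lowest 40% of the others by mean signal (below 3.94) were left out. Stage was fitted over all 8 arrays with limma 3.58.1 in R 4.3.3, with a trend in the prior variance, 5 residual degrees of freedom and two-sided tests, and Benjamini-Hochberg adjustment ran over 27022 probe sets. The threshold was 0.05. The fit was tested on simulated data with independent noise for each probe set and array. Those data held no differences shared across an array, so that test does not cover such differences here. Gene symbols came from the platform annotation, and 34958 probe sets had 1 symbol. Where a gene is given 1 value, it is that of its brightest kept probe set, except for the genes named for likeness.

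All probe sets of the 6 genes are described. For other lists except those of cell markers, up to 4 genes with the smallest p are named. Any other called gene was added after its values were seen. For likeness the 5 nearest genes are named. The members and lists were chosen with earlier results of these arrays known, so no list was tested. Some lists hold genes not analysed here.

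Alternatives covered normalization, pseudocounts, filters, the prior trend, array weights, the letters as a block, the arrays used and the probe set of each gene.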

Additional observations from a re-analysis of the deposited data

How the results depend on the processing

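Of 357 alternative values of the 18 changes (6 genes, 3 comparisons, brightest probe set), 330 kept their direction and side of the threshold, 7 lost a call, 11 gained one and 9 changed sign, the last all among uncalled values. With quantile normalization Nr2f1 between E11.5 and E10.5 was 0.16. Between E12.5 and E10.5 Nr2f1 was -0.041 without E10.5 B and -0.015 without E12.5 A, in a range of -0.041 to 0.34 with each array left out. In that comparison Nr2e1 was 0.13 with array weights, 0.11 with the letters as a replicate block, 0.44 without E10.5 C and also without E10.5 C and E11.5 A together (chosen after seeing the data), 0.13 without E12.5 A and 0.32 as the mean of its probe sets, in a range of -0.595 to 0.44 with each array left out. The causes were not tested. Between E11.5 and E10.5 the 1 called member probe set became 0 with a pseudocount of 64, the 60% filter (which left that probe set out), no prior trend, the block or only the arrays of those stages, 9 with array weights, 2 without E10.5 C and E11.5 A together, and 0 to 1 with each array left out. Between E12.5 and E11.5 the 5 calls became 13 with array weights, 9 with only the arrays of those stages and 2 (without E12.5 B) to 8 (without E10.5 C) with each array left out. Between E12.5 and E10.5 the 10 calls ranged from 8 to 12 with each array left out. With the block the calls were 0, 4 and 10, and Nr2f2 on its brightest probe set was no longer called between E12.5 and E11.5 (-1.74, adjusted p = 0.0591). Same-letter arrays did not deviate together (correlations of -0.39 to 0.13), so the letters are not taken as pairs. Array weights raised the count of all called probe sets between E11.5 and E10.5 to 2733, against 34. Between E12.5 and E11.5 they raised it to 10431, against 492. The higher share of the calls between E11.5 and E10.5 was 24.3% with weights, 91.3% after quantile normalization and 76.5% as deposited. Between E12.5 and E11.5 that share was 67.7% after quantile normalization and 89% as deposited. No detection calls were used, so the strength of dim signals, such as those of Nr2e1 and most Rora probe sets, over background is unknown.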
